A study of Mus musculus with 6 samples.

Results

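The 56 genes described here encode proteins that build the mitotic spindle, attach chromosomes to it, time the exit from mitosis and divide the cell. They were listed by function from textbook knowledge of mitosis, with earlier results of these data already known. The counts below are therefore not those of a list chosen blind. Of the 56 genes, 55 had a probe set that names them alone, out of 18194 genes measured, and Ccnb1 was not analysed here. 54 of the 55 were above their own array's median on at least 1 of the 6 arrays, and Kif15 was above it on none.

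Left ventricles of male Black Swiss mice, 8 to 10 weeks old, were taken 1 week after a sham operation or after transaortic constriction (TAC), in which the aorta is narrowed by surgery and the heart works against a higher pressure, and the RNA of sorted cells was read on Affymetrix arrays. The 6 groups, with 1 array each, were Tie2cre lineage traced cardiac fibroblasts after sham or TAC, Tie2cre non-lineage traced cardiac fibroblasts after sham or TAC (called untraced below), and cardiac endothelial cells after sham or TAC. Tie2cre expresses Cre recombinase from the promoter of Tie2 (Tek), a receptor of endothelial cells, so a traced fibroblast has Tie2 promoter activity in its own past or in that of its ancestors. This promoter is also known to be active in part of the blood lineage. Neither the sort markers nor the reporter allele is stated in the labels used. The study used 3 sham and 3 TAC mice, and the labels do not say whether each array holds RNA of 1 mouse or of several pooled mice, or whether the 3 arrays of 1 surgery share mice. With 1 array in each group there was no replicate, so no difference below has an error or a p-value, and a difference from mouse to mouse cannot be told apart from a difference between groups. In such bulk samples, a smaller share of dividing cells and less of these RNAs in each dividing cell cannot be told apart either.

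In mitosis, kinetochore proteins assembled on the centromere hold each chromosome to spindle microtubules, the spindle checkpoint delays anaphase until all are attached, and the anaphase-promoting complex then destroys cyclin B and securin to release the sister chromatids. Motor and scaffold proteins of the central spindle afterwards guide the contractile ring that separates the daughter cells. Most of these genes are transcribed mainly in G2 and mitosis, under the MuvB complex with B-Myb and Foxm1, and they are low in resting cells. Adult cardiac fibroblasts and endothelial cells divide little in the unstressed heart, and fibroblasts are known to proliferate early after pressure overload.

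Promoter sequences bear on genes that move together, so they are shown first. The cell cycle genes homology region, or CHR (TTTGAA or TTCGAA), is the element that MuvB contacts, and CCAAT boxes often lie upstream of it. RefSeq promoters on GRCm38.p6 were given for 46 of the 55 measured genes (51 promoters, each 250 bases before to 50 bases after the annotated start). The 4 genes with the largest mean fibroblast difference among those with a CHR in the 250 bases before the start are printed first, followed by Cdk1 and Ccnb2, which were added after their values were seen because their promoters are textbook examples of this class. Each line runs 5′ to 3′ on the strand of the gene and ends at the base before the start, and capitals mark CHR and CCAAT matches on either strand (TTCAAA and ATTGG are the reverse complements of TTTGAA and CCAAT). The positions on GRCm38.p6 are chr3:159495183-159495432 (plus strand) for Depdc1a, chr3:27153879-27154128 (minus) for Ect2, chr19:38054791-38055040 (plus) for Cep55, chr11:99024190-99024439 (minus) for Top2a, chr10:69352913-69353162 (minus) for Cdk1 and chr9:70421555-70421804 (minus) for Ccnb2.
Depdc1a: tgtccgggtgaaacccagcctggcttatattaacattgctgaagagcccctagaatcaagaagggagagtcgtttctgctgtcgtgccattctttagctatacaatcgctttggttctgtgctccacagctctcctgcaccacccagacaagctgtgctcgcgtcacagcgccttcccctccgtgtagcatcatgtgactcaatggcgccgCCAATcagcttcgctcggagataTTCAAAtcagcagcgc
Ect2: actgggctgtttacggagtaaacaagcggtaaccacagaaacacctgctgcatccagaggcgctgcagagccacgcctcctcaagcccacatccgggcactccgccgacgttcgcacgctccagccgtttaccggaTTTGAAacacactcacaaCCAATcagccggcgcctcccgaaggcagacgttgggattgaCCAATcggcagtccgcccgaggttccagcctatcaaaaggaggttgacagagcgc
Cep55: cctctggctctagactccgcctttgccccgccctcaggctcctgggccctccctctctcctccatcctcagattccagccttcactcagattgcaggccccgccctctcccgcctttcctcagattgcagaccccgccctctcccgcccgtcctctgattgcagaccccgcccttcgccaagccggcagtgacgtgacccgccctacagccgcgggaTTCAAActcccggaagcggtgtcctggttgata
Top2a: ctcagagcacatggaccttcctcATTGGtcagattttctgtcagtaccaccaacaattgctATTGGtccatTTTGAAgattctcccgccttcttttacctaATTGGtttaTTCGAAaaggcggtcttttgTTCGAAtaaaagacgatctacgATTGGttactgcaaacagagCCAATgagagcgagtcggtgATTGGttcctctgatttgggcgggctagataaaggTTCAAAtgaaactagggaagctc
Cdk1: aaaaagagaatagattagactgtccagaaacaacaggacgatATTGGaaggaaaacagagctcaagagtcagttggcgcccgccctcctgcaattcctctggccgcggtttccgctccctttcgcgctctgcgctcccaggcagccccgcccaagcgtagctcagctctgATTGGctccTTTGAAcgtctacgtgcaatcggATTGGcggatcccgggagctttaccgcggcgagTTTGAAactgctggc
Ccnb2: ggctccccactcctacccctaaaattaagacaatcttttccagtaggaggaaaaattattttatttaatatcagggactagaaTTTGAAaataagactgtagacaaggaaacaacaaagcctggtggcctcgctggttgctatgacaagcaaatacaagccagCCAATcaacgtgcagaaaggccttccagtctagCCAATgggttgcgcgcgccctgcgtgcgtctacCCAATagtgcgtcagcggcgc
Counted from the first base of the match in the gene's direction, the Depdc1a CHR began 16 bases before the start and its CCAAT box 39 bases before it. Top2a held 4 CHR matches, 179, 140, 120 and 23 bases before its start, and 6 CCAAT boxes. Cep55 held 1 CHR, 33 bases before its start, and no CCAAT box in these 250 bases. The marked CHR of Ect2 began 114 bases before its start and that of Ccnb2 167 bases before its start. In both genes it lay upstream of the marked CCAAT boxes. Over the 300-base window each held 2 CHR matches, so the printed bases do not show every CHR of these genes.

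Over the 300-base window, 36 of the 51 promoters (70.6%) held a CHR on either strand, against 19.2% of all 32851 promoters in the table. CCAAT was present in 72.5% against 37.4%, and both motifs in 58.8% against 7.52%. CHR matches lay close to the start: within 50 bases on either side of it, 34 of 51 promoters (66.7%) held one, against 5.31% of all promoters. In the 250 bases before the start alone, 35.3% of these promoters and 17.1% of all promoters held one. In 1 of the 51 promoters a CHR and a CCAAT match shared bases. A match is a description of the sequence, not evidence of binding. The 17 genes with a CHR in those 250 bases had a median fibroblast TAC minus sham log2 difference of 3.07. The other 29 with a promoter had 2.85. Over the 300-base window 33 of the 46 genes held a CHR, so many of these 29 also held a CHR. The medians therefore do not compare genes with a CHR to genes that lack it.

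Nearly every one of these genes was higher after TAC in all 3 cell populations. Levels are given as log2 intensity of 1 probe set per gene, and a gene was counted as higher when its TAC array was at least 2-fold, or 1 log2 unit, above the sham array of the same population. By that rule 51 of the 55 were higher in traced fibroblasts (4.43% of all measured genes were), 54 in untraced fibroblasts (3.62%), and 53 in endothelial cells (7.6%). 51 were higher in both fibroblast populations (2.97%), the exceptions being Espl1, Hmmr, Kif15 and Foxm1, and 51 in all 3 populations (1.59%). None was at least 2-fold lower in any population (2.33%, 2.19% and 1.43% of all genes were in traced, untraced and endothelial cells). At least 4-fold differences were counted for 41 of 55 in both fibroblast populations (0.923%), 51 in endothelial cells (2.15%) and 41 in all 3 populations (0.572%). The median log2 difference was 2.57 in traced fibroblasts, 3.21 in untraced fibroblasts and 3.33 in endothelial cells, which is 5.95-fold, 9.23-fold and 10.0-fold, and the medians of all measured genes were -0.03, 0.03 and 0.03. Each value compares 1 TAC array with 1 sham array.

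**Figure D1:**
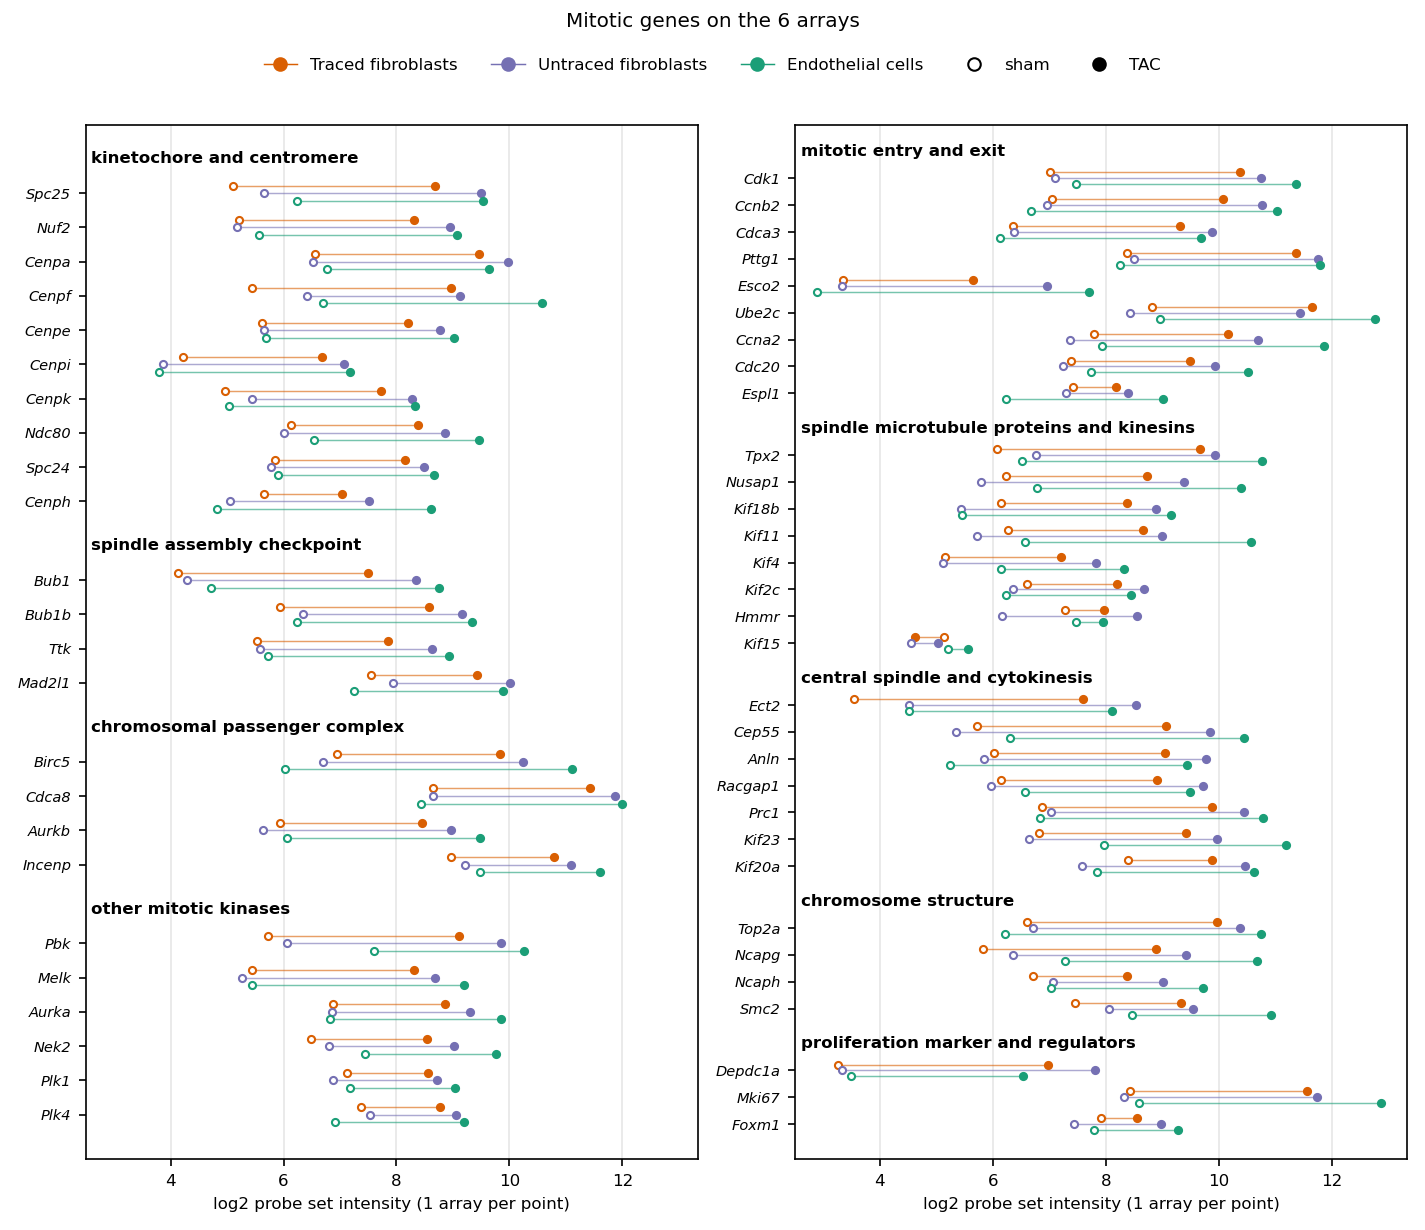
Log2 intensity of each measured gene on each of the 6 arrays, grouped by role, with 1 array per group. For 54 of the 55 genes the 3 TAC arrays lie above the 3 sham arrays, and Kif15 is the exception.

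The lowest of the 3 TAC arrays was above the highest of the 3 sham arrays for 54 of the 55 genes, as it was for 7% of all measured genes, and the median gap between them was 2.24 log2 units. The gap was under 1 log2 unit for Espl1, Hmmr, Smc2 and Foxm1. The 3 populations are not replicates of a condition, so this describes how alike they were. Most sham levels were dim: 29 of the 54 genes above an array median were so on TAC arrays only, and only 14 were above the median on all 3 sham arrays. In addition, 4 genes (Cenpi, Esco2, Ect2 and Depdc1a) lay in the lowest 10% of probe sets on at least 1 sham array. The 14 above the median on all 3 sham arrays (Mad2l1, Incenp, Cdca8, Plk1, Plk4, Ccna2, Cdk1, Cdc20, Ube2c, Pttg1, Kif20a, Smc2, Mki67 and Foxm1) had median log2 differences of 2.0 in traced fibroblasts, 2.79 in untraced fibroblasts and 2.77 in endothelial cells. Some were only just above it: Plk1 stood at log2 6.88 on the untraced sham array (median 6.80) and Plk4 at 6.91 on the endothelial sham array (median 6.84). Of these 14, 13 were at least 2-fold higher in both fibroblast populations (1.91% of the genes above all 3 sham medians were), Foxm1 being the exception, and all 14 in endothelial cells (7.21%). At the edge of detection, the highest level of Kif15 was 1.28 log2 units below its array's median, and those of Cenpi and Esco2 were 0.34 and 0.85 above it.

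All 10 kinetochore genes were at least 2-fold higher after TAC in every population, with a median log2 difference of 2.84 over the fibroblast populations and 3.31 in endothelial cells. They were Cenpa, the histone H3 variant that marks the centromere, Cenpe, a kinetochore motor, Cenpf, Cenph, Cenpi and Cenpk, and the 4 subunits of the Ndc80 complex, Ndc80, Nuf2, Spc24 and Spc25, which bind microtubules. Spc25 had log2 levels of 5.11 traced, 5.66 untraced and 6.24 endothelial on the sham arrays and 8.68, 9.49 and 9.54 on the TAC arrays. Its sham and TAC arrays did not overlap, and its log2 differences were 3.57, 3.84 and 3.30 in traced, untraced and endothelial cells. The other 3 subunits of the complex also had all TAC arrays above all sham arrays, with traced, untraced and endothelial log2 differences of 2.24, 2.86 and 2.91 for Ndc80, 3.10, 3.76 and 3.51 for Nuf2 and 2.30, 2.72 and 2.75 for Spc24. Cenph had the smallest fibroblast difference of the group, with log2 levels of 5.65 traced, 5.05 untraced and 4.82 endothelial on the sham arrays and 7.04, 7.52 and 8.61 on the TAC arrays. In fibroblasts Cenph differed by log2 1.38 (traced) and 2.47 (untraced), and in endothelial cells by 3.79, from the lowest sham array of the 6. Cenpa had log2 levels of 6.55 traced, 6.52 untraced and 6.77 endothelial on the sham arrays and 9.45, 9.97 and 9.63 on the TAC arrays, so the untraced fibroblast array was its highest.

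The 4 spindle checkpoint genes were higher in every population, with medians of 2.70 in fibroblasts and 3.15 in endothelial cells on the log2 difference scale. Bub1 and Bub1b encode checkpoint proteins at unattached kinetochores, Ttk (Mps1) the kinase that starts the signal, and Mad2l1 (Mad2) the protein that inhibits Cdc20. Bub1 had log2 levels of 4.13 traced, 4.30 untraced and 4.72 endothelial on the sham arrays and 7.50, 8.35 and 8.76 on the TAC arrays. Its sham levels were dim, and its log2 differences were 3.37, 4.05 and 4.04 in traced, untraced and endothelial cells. Mad2l1, above the median on every sham array, had log2 levels of 7.56 traced, 7.93 untraced and 7.26 endothelial on the sham arrays and 9.43, 10.01 and 9.89 on the TAC arrays. Its differences, 1.88, 2.08 and 2.63, were the smallest of the 4 in fibroblasts, and sham and TAC arrays did not overlap. Bub1b differed by 2.63, 2.81 and 3.10 and Ttk by 2.33, 3.05 and 3.19 in the same order and scale.

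The 4 subunits of the chromosomal passenger complex, which corrects faulty attachments and later acts at the midzone, were higher in every population, with median log2 differences of 2.95 in fibroblasts and 3.48 in endothelial cells. Birc5 (survivin) had log2 levels of 6.94 traced, 6.69 untraced and 6.02 endothelial on the sham arrays and 9.83, 10.25 and 11.10 on the TAC arrays. Endothelial cells gave both its lowest sham and its highest TAC level, and the folds were 7.42 in traced fibroblasts, 11.7 in untraced fibroblasts and 33.9 in endothelial cells, the last being the largest fold of any of the 55 genes in any population. Incenp, the scaffold subunit, had log2 levels of 8.96 traced, 9.22 untraced and 9.48 endothelial on the sham arrays and 10.79, 11.10 and 11.60 on the TAC arrays. It was bright on every array and its log2 differences were 1.83, 1.88 and 2.12 in traced, untraced and endothelial cells. Cdca8 (borealin) differed by 2.77, 3.21 and 3.55 and Aurkb, the kinase subunit, by 2.52, 3.32 and 3.41. Of the 4 other probe sets of Incenp, 2 were at least 2-fold higher in every population, with log2 differences of 1.57, 1.38 and 3.05 for the one and 1.44, 1.45 and 3.02 for the other.

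The other mitotic kinases, 6 in number, were also at least 2-fold higher in every population, with smaller medians of 2.17 in fibroblasts and 2.48 in endothelial cells (log2 difference). Aurka and Plk1 act at spindle poles and in mitotic entry, Plk4 drives centriole duplication, Nek2 separates centrosomes, and Melk and Pbk are kinases that are high in dividing cells. Pbk had log2 levels of 5.73 traced, 6.07 untraced and 7.60 endothelial on the sham arrays and 9.11, 9.86 and 10.25 on the TAC arrays. Its endothelial sham level stood above both fibroblast sham levels, and its log2 differences were 3.38, 3.79 and 2.65 in traced, untraced and endothelial cells. Plk4 had log2 levels of 7.37 traced, 7.52 untraced and 6.91 endothelial on the sham arrays and 8.76, 9.05 and 9.19 on the TAC arrays. Its log2 differences, 1.40, 1.53 and 2.27, were the smallest of the 6 in fibroblasts. Plk1 differed by 1.45, 1.83 and 1.87, Aurka by 1.98, 2.44 and 3.04, Nek2 by 2.05, 2.22 and 2.31 and Melk by 2.86, 3.42 and 3.75, on the same scale and in the same order.

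Of the 9 measured genes of mitotic entry and exit, 8 were at least 2-fold higher in both fibroblast populations and all 9 in endothelial cells, with median log2 differences of 2.96 and 3.80. Cdk1 is the kinase that drives mitosis, Ccna2 and Ccnb2 are its cyclins, Cdc20 activates the anaphase-promoting complex, Ube2c is the ubiquitin-conjugating enzyme that works with it, Pttg1 is securin, Espl1 is separase, the protease that cuts cohesin, Esco2 acetylates cohesin, and Cdca3 takes part in mitotic entry. Cdk1 had log2 levels of 7.01 traced, 7.10 untraced and 7.47 endothelial on the sham arrays and 10.38, 10.74 and 11.37 on the TAC arrays. These are folds of 10.3, 12.5 and 14.9 in traced, untraced and endothelial cells, with no overlap of sham and TAC arrays. Ccnb2 differed by log2 3.04, 3.80 and 4.35 and Ccna2 by 2.37, 3.33 and 3.94 in the same order. Espl1 had the smallest fibroblast difference, with log2 levels of 7.41 traced, 7.30 untraced and 6.23 endothelial on the sham arrays and 8.18, 8.40 and 9.02 on the TAC arrays. It stood 1.7-fold higher in traced and 2.14-fold higher in untraced fibroblasts, and 6.92-fold higher in endothelial cells, where its sham level was the lowest. Esco2 was near the bottom of the scale on the sham arrays, with log2 levels of 3.35 traced, 3.33 untraced and 2.88 endothelial on the sham arrays and 5.65, 6.96 and 7.70 on the TAC arrays. Its TAC levels differed by more than 1 log2 unit between traced and untraced fibroblasts. Pttg1 differed by log2 2.98, 3.26 and 3.54, Ube2c by 2.83, 3.01 and 3.80, Cdc20 by 2.11, 2.70 and 2.77 and Cdca3 by 2.95, 3.51 and 3.55.

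The spindle genes held 2 of the 4 exceptions, Hmmr and Kif15. Of the 8, 6 were at least 2-fold higher in both fibroblast populations and 6 in endothelial cells, with median log2 differences of 2.61 and 2.92. Tpx2, which activates Aurora A on microtubules, had log2 levels of 6.08 traced, 6.77 untraced and 6.52 endothelial on the sham arrays and 9.67, 9.93 and 10.77 on the TAC arrays. Its log2 differences were 3.59, 3.16 and 4.25 in traced, untraced and endothelial cells, and it was among the 4 genes in which the traced difference was at least as large as the untraced one, with Cenpf, Ect2 and Smc2. Kif11 (Eg5), the motor that pushes spindle poles apart, differed by 2.40, 3.29 and 4.0 and Nusap1, a microtubule bundling protein, by 2.48, 3.60 and 3.61. The motors Kif2c, Kif4 and Kif18b differed by 1.58, 2.32 and 2.22, 2.06, 2.70 and 2.17 and 2.24, 3.45 and 3.70 in the same order. Kif15, a motor that can stand in for Kif11, had log2 levels of 5.14 traced, 4.56 untraced and 5.21 endothelial on the sham arrays and 4.62, 5.04 and 5.57 on the TAC arrays. All 6 were below the array medians, its sham and TAC levels overlapped, and the probe set gives no measure of a change in either direction. Hmmr, a spindle assembly factor also known as a hyaluronan receptor, had log2 levels of 7.28 traced, 6.15 untraced and 7.47 endothelial on the sham arrays and 7.96, 8.55 and 7.95 on the TAC arrays on the probe set used. Its traced and endothelial differences, 0.68 and 0.48, were under the 2-fold line and its untraced difference was 2.40. Of its 4 other probe sets, 3 stood at least 2-fold higher in every population, with log2 differences of 3.76, 4.76 and 4.21 in traced, untraced and endothelial cells for the largest, so the Hmmr value depends on the probe set.

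The cytokinesis genes had the largest fibroblast median among the roles with 4 or more genes. All 7 were higher in every population, with median log2 differences of 3.26 in fibroblasts and 3.59 in endothelial cells. Ect2 is the exchange factor that activates RhoA at the cell equator, Racgap1 and Kif23 form the centralspindlin complex that recruits it, Prc1 bundles the antiparallel microtubules of the midzone, Kif20a is a midzone motor, Anln (anillin) links the contractile ring, and Cep55 acts at the final cut between daughter cells. Ect2 had log2 levels of 3.55 traced, 4.52 untraced and 4.51 endothelial on the sham arrays and 7.60, 8.54 and 8.10 on the TAC arrays. These are folds of 16.6, 16.2 and 12.1 in traced, untraced and endothelial cells, from dim sham levels. Kif20a, the smallest fibroblast difference of the group, had log2 levels of 8.40 traced, 7.59 untraced and 7.85 endothelial on the sham arrays and 9.89, 10.46 and 10.62 on the TAC arrays. Its traced difference of 1.49 was below its untraced 2.88 and endothelial 2.77 ones, all on the log2 scale. The centralspindlin genes differed by 2.60, 3.32 and 3.23 (Kif23) and 2.77, 3.75 and 2.92 (Racgap1) in traced, untraced and endothelial cells. Cep55 differed by 3.35, 4.50 and 4.13, Anln by 3.02, 3.94 and 4.20 and Prc1 by 3.01, 3.43 and 3.96 in the same order.

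The 4 genes of chromosome structure were higher in every population, with median log2 differences of 2.43 in fibroblasts and 3.04 in endothelial cells. Top2a, the topoisomerase that untangles sister DNA, had log2 levels of 6.60 traced, 6.72 untraced and 6.21 endothelial on the sham arrays and 9.97, 10.37 and 10.74 on the TAC arrays. These are folds of 10.4, 12.6 and 23.2, with no overlap. Smc2, a core subunit of both condensins, had log2 levels of 7.45 traced, 8.05 untraced and 8.46 endothelial on the sham arrays and 9.33, 9.54 and 10.92 on the TAC arrays, and its differences were 1.88, 1.49 and 2.46 in traced, untraced and endothelial cells. The condensin I subunits Ncapg and Ncaph differed by 3.06, 3.07 and 3.40 and 1.65, 1.95 and 2.69.

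The last 3 genes were Mki67, the source of the Ki-67 proliferation marker, Foxm1, a transcription factor of G2 and mitosis genes, and Depdc1a. Mki67 had log2 levels of 8.43 traced, 8.33 untraced and 8.59 endothelial on the sham arrays and 11.56, 11.74 and 12.87 on the TAC arrays. These are folds of 8.73, 10.6 and 19.4 in traced, untraced and endothelial cells. Depdc1a, the largest mean fibroblast difference of all 55, had log2 levels of 3.25 traced, 3.34 untraced and 3.49 endothelial on the sham arrays and 6.98, 7.81 and 6.53 on the TAC arrays. Its sham arrays were near the floor of the scale, and its folds were 13.3, 22.3 and 8.21. Foxm1 had log2 levels of 7.92 traced, 7.44 untraced and 7.80 endothelial on the sham arrays and 8.55, 8.98 and 9.27 on the TAC arrays. Its traced difference of 0.63 was under the 2-fold line and its untraced and endothelial differences were 1.53 and 1.48. Of its 3 other probe sets, 2 were at least 2-fold higher in every population, with log2 differences of 1.16, 1.35 and 1.07 for the one and 1.99, 1.68 and 2.33 for the other in traced, untraced and endothelial cells.

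**Figure D2:**
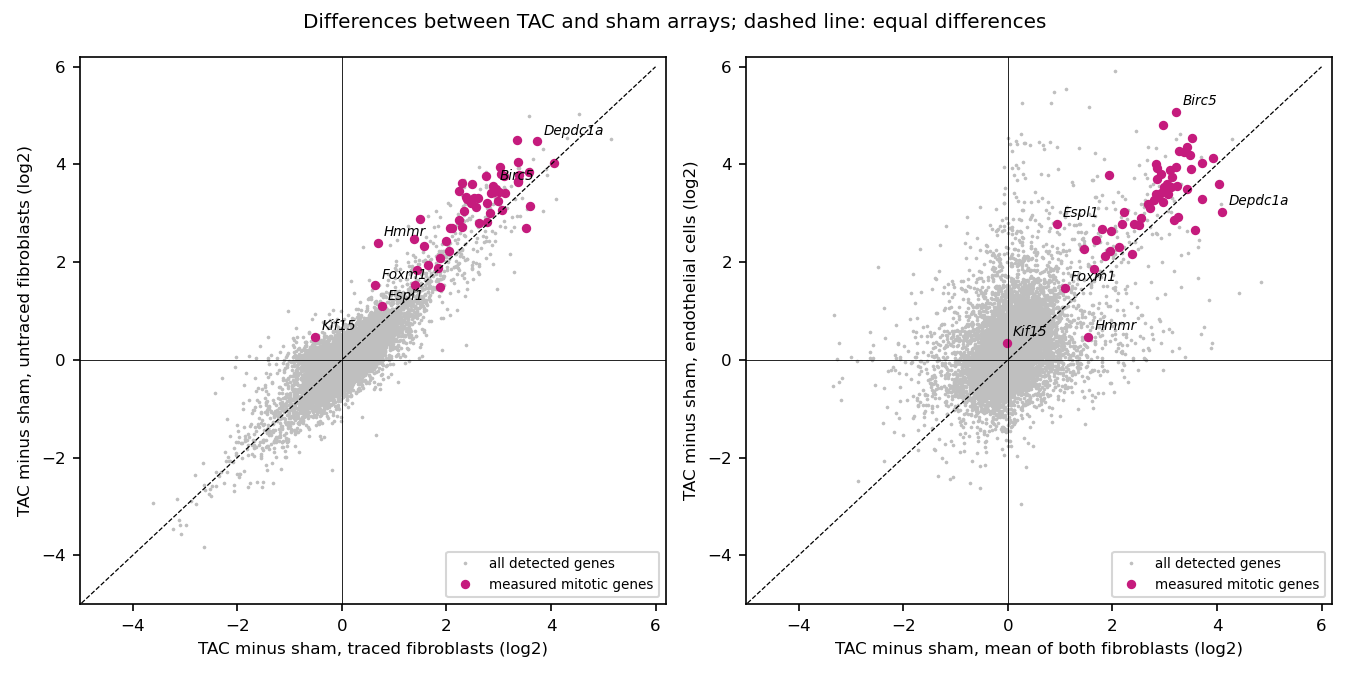
TAC minus sham log2 differences, untraced against traced fibroblasts on the left and endothelial cells against the mean of both fibroblast populations on the right, with 1 array per group, measured mitotic genes in pink, all detected genes in grey and a dashed line of equal differences. On the left 51 of the 55 mitotic genes have the larger difference in untraced fibroblasts, and on the right 47 have it in endothelial cells.

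In the fibroblast arrays, marker lists of cell types had smaller median differences than these genes. The 15 fibroblast markers had a median log2 difference after TAC of -0.08. Pdgfra, a receptor of resident fibroblasts, had log2 levels of 12.56 traced, 12.56 untraced and 7.63 endothelial on the sham arrays and 12.03, 12.15 and 8.72 on the TAC arrays. Col1a1, a chain of type I collagen, had log2 levels of 13.74 traced, 13.58 untraced and 8.58 endothelial on the sham arrays and 14.01, 13.92 and 13.01 on the TAC arrays. Both were high on every fibroblast array. The 14 endothelial markers had a median of -0.58, 2 of them were at least 2-fold higher in both fibroblast populations, and the list's summed intensity was 9658 and 9709 on the traced and untraced sham arrays and 7655 and 7490 on the TAC arrays, against 140889 and 118963 in endothelial cells at sham and TAC. Tek and Eng were the brightest of this list on every fibroblast array, at log2 10.70 to 11.91 and 11.45 to 11.99. The fibroblast sums therefore rest largely on these 2 genes and are not a measure of endothelial cell content. The 12 macrophage markers, 8 of them above an array median, had a median of -0.49 in fibroblasts and summed to 2654 and 1797 at sham and 1819 and 1319 after TAC. Within that list the mean fibroblast difference was above 0 for Cd68, Csf1r and Lyz2, the last at 0.13. Cd68 had log2 levels of 7.03 traced, 6.84 untraced and 6.25 endothelial on the sham arrays and 7.75, 7.21 and 7.55 on the TAC arrays. Csf1r had log2 levels of 6.85 traced, 6.63 untraced and 6.18 endothelial on the sham arrays and 8.29, 7.59 and 7.92 on the TAC arrays. Adgre1, C1qc, Mrc1 and Ptprc were above the median on no array, and neither was any of 7 lymphocyte markers. For 9 markers of mural cells the median was -0.56 in fibroblasts and -0.83 in endothelial cells, and 4 of them were at least 2-fold lower in both fibroblast populations (1.25% of all genes were). Acta2, smooth muscle actin, went the other way in fibroblasts, with log2 differences of 1.44 in traced and 1.25 in untraced cells. The 10 cardiomyocyte markers had medians of 0.13 and -1.02, and summed to 10827 and 5054 on the endothelial sham and TAC arrays against 1299 to 1832 on the fibroblast arrays. The part of these shifts in the mitotic differences was not tested.

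Endothelial cells gave the highest of the 3 TAC levels for 46 of the 55 genes, where 39.9% of all measured genes had it there, and untraced fibroblasts for the other 9 (Cenpa, Mad2l1, Cdca3, Hmmr, Kif2c, Ect2, Racgap1, Anln and Depdc1a). After TAC, 52 of 55 were above the mean of the 2 fibroblast arrays (48.6% of all genes were), with a median log2 difference of 0.68 (-0.02 for all genes), and 13 of them by at least 2-fold (7.05%). At sham the 2 cell types were closer: 36 of 55 were above 0 (47.4%), the median was 0.18 (-0.04 for all genes), and 4 were at least 2-fold higher in endothelial cells (Pbk, Kif4, Kif23 and Ncapg; 7.53%). Espl1, at -1.13, was the only gene at least 2-fold lower in endothelial cells at sham (16.3% of all genes were), and none was after TAC (12.7%). The TAC minus sham difference was larger in endothelial cells than the fibroblast mean for 47 genes (55.3% of all genes), with a median excess of 0.48 log2 units (0.06 for all genes), and larger than in each fibroblast population for 39 (43.4%). Cenph, Birc5, Espl1 and Esco2 had the largest excess, of 1.87, 1.86, 1.86 and 1.85 log2 units, and Depdc1a, Hmmr and Pbk the lowest, of -1.07, -1.07 and -0.93. The Hmmr value is that of the probe set used and depends on it. These differences between populations were not tested.

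Fibroblast markers moved with the endothelial TAC array. 14 of 15 fibroblast markers were at least 2-fold higher there than on the endothelial sham array, with a median log2 difference of 2.86, and their summed intensity was 6614 at sham and 59538 after TAC, against 151014 to 165360 on the 4 fibroblast arrays. On the endothelial sham array 12 of 15 were above the array median, and Islr, Lum and Tcf21 were below it. All 15 were above the median on the endothelial TAC array. Col1a1 stood at 8.58 and 13.01 on these arrays and Pdgfra at 7.63 and 8.72, as log2 levels, while the endothelial markers Pecam1 (13.55 and 13.43) and Cdh5 (14.11 and 13.81) moved little. After TAC 12 of the 15 fibroblast markers were at least 2-fold below the fibroblast mean on the endothelial array (12.7% of all genes were), with a median of -1.91. The 12 macrophage markers had a median log2 difference of 0.55 in endothelial cells, 3 of them were at least 2-fold higher after TAC, and they summed to 1449 at sham and 2368 after TAC. The 6 probe sets of the bioB spike, a bacterial control transcript added before hybridisation, had a mean log2 level of 11.20 and 11.07 on the endothelial sham and TAC arrays and 8.67 to 9.27 on the fibroblast arrays. The part of these in the endothelial values was not tested.

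**Figure D3:**
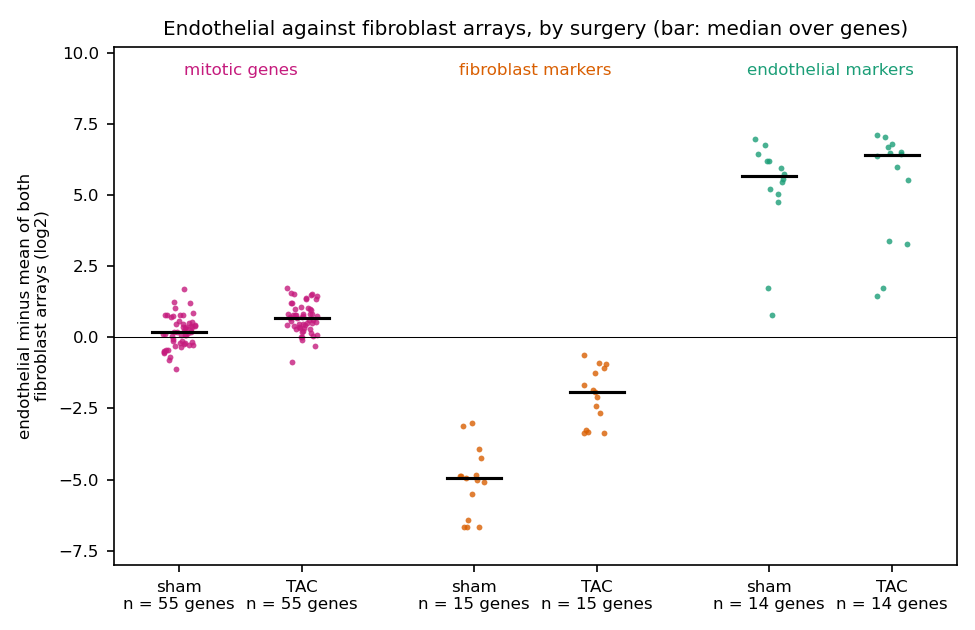
Endothelial minus mean fibroblast log2 level at sham and after TAC for the 55 mitotic genes, 15 fibroblast markers and 14 endothelial markers, with 1 point per gene and a bar at the median. Mitotic genes have medians of 0.18 at sham and 0.68 after TAC, and fibroblast markers -4.93 and -1.91.

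Traced and untraced fibroblasts shared the direction of these differences and differed in level after TAC. On the sham arrays the 2 fibroblast populations were close, with a median traced minus untraced log2 difference of 0.03 (-0.03 for all measured genes), and 24 of 55 genes were lower in traced cells (54.5% of all genes were). After TAC 54 of 55 were lower in traced cells, where 63.6% of all measured genes were, and the median log2 difference was -0.52 (-0.08 for all genes). Ube2c, at 0.21, was the exception. By role the median after TAC ran from -0.41 for the other mitotic kinases to -0.74 for the cytokinesis genes. The differences were small for single genes: only Esco2, by -1.31, was at least 2-fold lower in traced cells after TAC (0.154% of all genes were), and none was at least 2-fold higher (0.302%). The traced TAC level of Esco2, 5.65, was below its array's median of 6.82. The other Esco2 probe set, above the median on no array, gave a difference of 0.09. At sham only Hmmr, by 1.12, was at least 2-fold higher (0.5%), and none was at least 2-fold lower (0.396%), with Cenpf lowest at -0.98. The other 4 probe sets of Hmmr gave 0.29, 0.11, 0.35 and 0.08 at sham. The TAC minus sham difference was larger in untraced than in traced fibroblasts for 51 of 55 genes (51.9% of all genes), with a median excess of 0.56 log2 units (0.02 for all genes), values that rest on the same 4 arrays. These values come from 1 array each and were not tested.

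**Figure D4:**
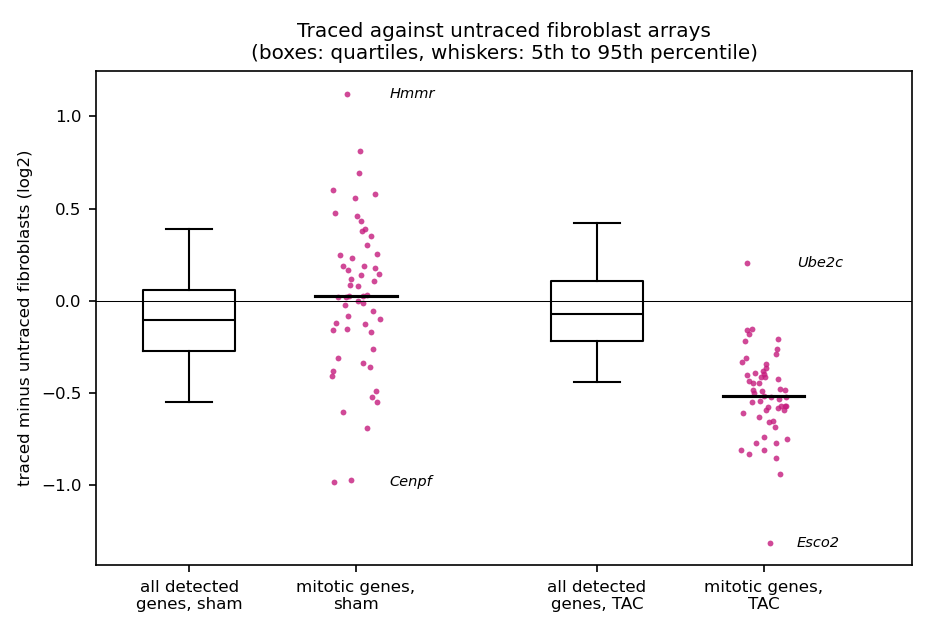
Traced minus untraced log2 difference of each measured mitotic gene at sham and after TAC (points, with a bar at the median) beside boxes for all detected genes (quartiles, with whiskers to the 5th and 95th percentile), with 1 array per group. At sham the genes lie on both sides of 0 with a median of 0.03, and after TAC 54 of 55 lie below 0 with a median of -0.52.

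Other measures differed between the same 2 TAC arrays. The mean log2 level of 3 probe sets for 18S ribosomal RNA was 12.04 on the untraced TAC array and 14.11 to 14.64 on the other 5. After TAC the endothelial markers were lower in traced than in untraced fibroblasts for 10 of 14 genes, with a median log2 difference of -0.36, the fibroblast markers for 13 of 15, with a median of -0.13, and the macrophage markers for 3 of 12, with a median of 0.28. Of all measured genes 63.6% were lower in traced cells in this comparison, with a median of -0.08. The summed intensity of macrophage markers was 1819 on the traced and 1319 on the untraced TAC array. The part of these in the lineage difference was not tested.

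Other genes of the same processes moved less as a whole. Both sets were chosen with earlier results of these data known, so the contrast between them may reflect that choice and was not tested. Of 118 listed in 7 groups, 116 were measured, and 39 were at least 2-fold higher in both fibroblast populations (2.97% of all genes were) and in all 3 populations, 59 were so in endothelial cells (7.6%), and none was at least 2-fold lower in both fibroblast populations (1.25%) or in endothelial cells. In traced fibroblasts after TAC 91 of the 116 were below the untraced level, as were 63.6% of all measured genes.

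Among 30 other kinetochore and centromere genes, 12 were higher in both fibroblast populations and 18 in endothelial cells, with median log2 differences of 0.84 and 1.40. Knl1, the kinetochore scaffold that binds Bub1, differed by 4.10, 3.29 and 4.15 and Kntc1, a checkpoint protein, by 2.65, 3.49 and 3.05 in traced, untraced and endothelial cells, while Cenpb, which binds centromere DNA, differed by 0.05, -0.48 and 0.38. Of 23 other spindle and cytokinesis genes, 16 were higher in both fibroblast populations and 19 in endothelial cells, with medians of 2.05 and 2.06. Spag5 (astrin) differed by 3.24, 3.55 and 4.40 and the motor Kif22 by 2.79, 3.11 and 2.0, and Numa1, a spindle pole protein also present in interphase nuclei, by -0.24, -0.45 and -0.40. Of 15 other genes of mitotic entry and exit, 7 and 11 were higher, with medians of 0.90 and 2.13. Cks2, a small Cdk partner, differed by 2.92, 3.51 and 4.52 and Cdca5 (sororin) by 2.36, 3.19 and 3.60, and Fzr1 (Cdh1), the G1 activator of the anaphase-promoting complex, by -0.08, -0.02 and 0.33. Cks1b, singled out after its values were seen, had log2 levels of 11.38 traced, 11.30 untraced and 8.35 endothelial on the sham arrays and 11.85, 12.10 and 12.15 on the TAC arrays, and only its endothelial sham array stood apart.

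Fewer genes were higher in the other 4 lists. None of the 12 core subunits of the anaphase-promoting complex was at least 2-fold higher in both fibroblast populations or in endothelial cells, with median log2 differences of 0.14 in fibroblasts and 0.48 in endothelial cells. Cdc27 and Cdc16 had the largest mean fibroblast differences of that list, 0.54 and 0.39, and Anapc11 the lowest, -0.21. Its activator Cdc20 and partner enzyme Ube2c, described above, were at least 4-fold higher in each population. Of 14 other condensin and cohesin genes, 2 were higher in both fibroblast populations and 3 in endothelial cells, with medians of 0.18 and 0.44. Those 2 were condensin subunits, Ncapd2 at 1.51, 1.76 and 2.48 and Ncapg2 at 1.69, 1.51 and 3.69 in traced, untraced and endothelial cells, and the cohesin subunit Stag2 was lowest at -0.37, -0.03 and -0.34. Of 10 centriole genes 1 was higher in both fibroblast populations and 3 in endothelial cells (7.6% of all genes were), with medians of 0.33 and 0.64. The 1 was Stil at 1.51, 1.81 and 2.96, followed by Cep192 at 1.00, 0.79 and 1.43, and Pcnt was lowest at -0.25, -0.57 and 0.43. Of 12 genes of the MuvB, Myb and pocket protein regulators 1 was higher in both fibroblast populations and 5 in endothelial cells, with medians of 0.03 and 0.43. The 1 was Rbl1 (p107) at 2.25, 2.60 and 1.57, followed by Lin9 at 1.14, 0.62 and 1.34, and Lin52 was lowest at -0.73, -0.38 and -0.70.

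**Figure D5:**
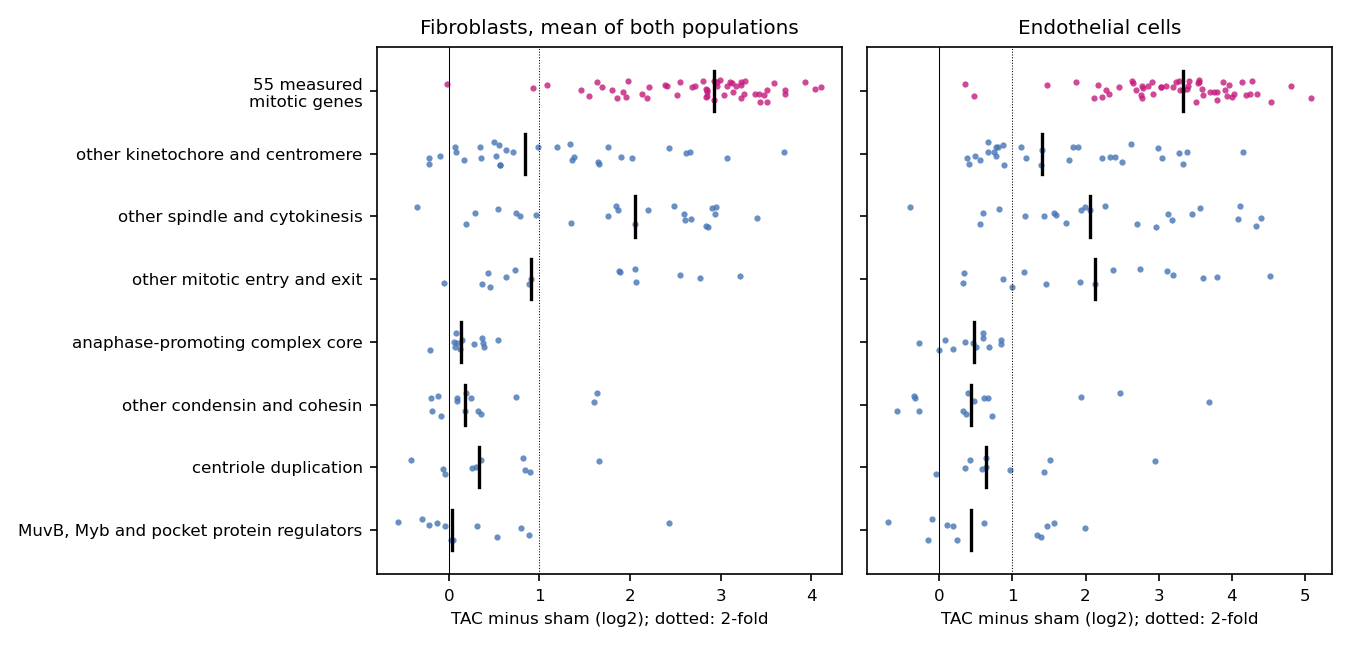
TAC minus sham log2 difference of the mitotic genes (pink) and of the measured genes of each pathway list (blue) in fibroblasts and in endothelial cells, with 1 point per gene, a bar at the median and a dotted 2-fold line. The other spindle and cytokinesis genes have a fibroblast median of 2.05, and all 12 core subunits of the anaphase-promoting complex lie below the 2-fold line in both panels.

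A CHR within 50 bases of the start was also counted in these other genes. It was present in 21 of 36 promoters (58.3%) of the pathway genes at least 2-fold higher in all 3 populations and in 12 of 70 (17.1%) of the other pathway genes. Among genes above an array median that are on neither list, 19 of 188 promoters (10.1%) of those higher in all 3 populations held one, and 378 of 12324 (3.07%) of the rest. These shares describe the sequences and were not tested.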

How the data were processed

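Per the labels, 200 ng of total RNA from each sorted population went to 1 Affymetrix array. The deposited values were linear intensities of 45101 probe sets on 6 arrays (3.82 to 37205), and the submitters' processing notes name RMA, with its version and settings not given in the sources used here. They were used as deposited and taken to log2. Array medians were 106.6 to 115.2, and no 2 arrays were identical.

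Probe sets were named from GEO's platform annotation, with symbols updated by Entrez ID to RefSeq (GRCm38.p6): 34958 had 1 symbol, 932 several and 9211 none listed. A gene took its brightest 1-symbol probe set by mean log2. Genes above their array's median on at least 1 array counted as detected (12257 of 18194). A 2-fold difference (1 on the log2 scale) was the counting threshold, with no test, since each group had 1 array. Counting was tested on simulated data. The genes, lists and promoter motifs were chosen with earlier results of these data known. By role, the genes with the largest and smallest mean fibroblast difference were given on every array, and from each pathway list the 2 largest and the lowest. Alternatives tried were the mean of probe sets, no _x_at or _s_at probe sets, no or a stricter filter, log2(value + 64), repeated quantile normalization, median centring and, added later, leaving out a fibroblast population. Python 3.11.15, pandas 2.3.3 and numpy 2.4.6 were used.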

Additional observations from a re-analysis of the deposited data

How the results depend on the processing

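Of the 54 detected genes, 29 were above an array median on TAC arrays only, so this filter favoured genes that are high after TAC. The stricter upper-quartile filter also took a gene on any 1 array. Among the 54, 51 were at least 2-fold higher after TAC in traced fibroblasts (6.03% of all detected genes were) and 54 in untraced fibroblasts (4.86%). In both fibroblast populations 51 were higher (4.19%), and in endothelial cells 53 (10.9%). These counts stayed within 1.5 times under every alternative run, although some alternatives kept fewer genes. They were lowest, at 39, 40, 39 and 40, when only genes above the upper quartile were kept, which left 40 genes to count. The median fibroblast log2 difference of 2.92 was 2.42 with the mean of all probe sets, 2.02 with log2(value + 64), 2.59 without the untraced arrays and 3.21 without the traced arrays, the last 2 chosen after seeing the data. The median endothelial difference, 3.36 over detected genes, was 2.79, 2.47 and, with each array centred on its median, 3.02, and that centring took the median of all detected genes from 0.18 to -0.16. The count of 1 gene differing at least 2-fold between traced and untraced fibroblasts after TAC was 0 with the mean of probe sets, with the upper-quartile filter and with log2(value + 64). At sham the count of 1 was 0 under those 3 settings and without _x_at and _s_at probe sets, and 3 after repeated quantile normalization. No TAC minus sham difference of the 54 detected genes that was at least 2-fold changed sign. In 1 or both fibroblast populations Incenp and Aurka came under 2-fold with the mean of probe sets, and Cenph, Esco2 and Espl1 with log2(value + 64). No paired analysis was possible because the groups share only 1 replicate number. The limits are 1 array a group, unknown pooling of mice, and sham levels below the array median for most of these genes.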

Other observations

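The 55 measured mitotic genes had 119 probe sets, 94 of them above an array median on at least 1 array, and 87 of the 119 were at least 2-fold higher after TAC in both fibroblast populations and in endothelial cells, as were 1.39% of all 34958 probe sets with 1 symbol. None was at least 2-fold lower in any population (4.77% of all were). Of the 34 genes with several probe sets, 13 had all of them past that line and 21 had some. After TAC 89 of the 94 were lower in traced than in untraced fibroblasts, where 56.1% of all probe sets above an array median were. Single probe sets stood apart from the others of their gene: the second of Spc25 had log2 differences of -0.13, -0.41 and 0.05 in traced, untraced and endothelial cells, and 1 of the 5 of Incenp had 0.07, -0.01 and -0.59.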
